A study of Mus musculus with 8 samples.

Results

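Inositol trisphosphate and calcium kinase genes were followed in the striatum of newborn mice that lack the transcription factor Ctip2. The set was given as 10 genes, and all probe sets carrying 1 of these symbols in the array's annotation were taken, which gave 27 of 45037 probe sets and 9 genes. Itpr1 was not analysed here. Itpka and Ptk2b, with 3 probe sets between them, had been picked by their lower values in the null arrays, the same contrast as shown here, so their values are given as a description without a test. Itpkb, Itpr2, Itpr3, Camk2a, Camk2b, Camk4 and Prkcb, with 24 probe sets, had been added for their function in the same pathways.

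The study hybridised RNA from 8 BALB/c mice at postnatal day 0 to Affymetrix arrays, 1 mouse per array: 3 wild type animals, 1 Ctip2 heterozygote and 4 Ctip2 null mutants. Ctip2 is listed here under its current symbol Bcl11b. The tissue was a punch of 500 µm diameter from the middle of the striatum in a coronal slice 300 µm thick. The sources used here do not state which part of the gene was deleted or whether animals shared a litter, so p-values cover only the spread between these animals.

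Inositol trisphosphate, or IP3, is a small messenger that phospholipase C cuts from a membrane lipid when receptors coupled to Gq proteins are active. It opens IP3 receptors, which are calcium channels of the endoplasmic reticulum, and IP3 3-kinases end the signal by adding a phosphate to it. The released calcium binds calmodulin, which switches on calmodulin-dependent kinases, and together with diacylglycerol it recruits the conventional forms of protein kinase C. In medium spiny neurons, which send the output of the striatum, these enzymes are known to act beside dopamine and glutamate signalling.

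The array-wide values that bear on these genes were as follows. On the log2 scale the medians of the arrays ran from 6.21 to 6.35 and their SDs from 1.84 to 2.06. The SDs were 1.97, 1.84 and 1.87 in wild type 1 to 3 and 1.96, 2.03, 2.05 and 1.90 in null 1 to 4. On the brightest of its 4 probe sets Bcl11b ranged from 12.00 to 12.45 in wild type and from 11.03 to 11.46 in null arrays and read 12.43 in the heterozygote, a null minus wild type difference of -1.11 ± 0.16 (SE; limma adjusted p = 0.0091 over all probe sets, and 0.0571 over genes without wild type 1 and null 2). Of 10 measured medium spiny neuron markers 4 were lower and 0 higher in null striatum, and their summed level ranged from 13.55 to 13.70 in wild type and from 13.25 to 13.56 in null arrays. The summed level of 9 cortical glutamatergic neuron markers ranged from 9.15 to 9.20 in wild type and from 8.89 to 9.15 in null arrays, with 0 called. On all 8 arrays 6 of them read under 6 on the log2 scale, which is below every array median. Choroid plexus signal varied widely, with Ttr from 9.38 to 13.34 in wild type and from 7.11 to 13.43 in null arrays, highest in wild type 1 and null 2. The summed level of 7 microglial markers ranged from 10.33 to 10.57 in wild type and from 10.73 to 11.24 in null arrays, with 1 of them, C1qa, called higher. Sums of 9 interneuron markers (11.92 to 12.55 and 12.14 to 12.32, 2 called higher), 7 astrocyte or radial glia markers (12.19 to 12.69 and 12.65 to 12.90, 1 called higher), 6 oligodendrocyte markers (10.65 to 11.002 and 10.64 to 11.14, 0 called) and 6 endothelial and blood markers (9.63 to 10.15 and 9.90 to 10.50, 0 called) overlapped between wild type and null arrays. The part of these cell types in the results below was not tested.

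Itpka and Ptk2b, picked for this, were lower in every null array than in every wild type array on each of their probe sets. Itpka encodes an IP3 3-kinase that also bundles actin in dendritic spines. Its single probe set, 1424037_at, read 8.21, 8.13 and 7.67 in wild type 1 to 3 and 4.60, 4.47, 4.92 and 4.76 in null 1 to 4. The groups did not overlap, and the lowest wild type array stood far above the highest null array. The means were 8.004 ± 0.29 (SD, n = 3) and 4.69 ± 0.20 (SD, n = 4), 9.97-fold lower in null striatum as measured. The null values lie below the medians of their arrays, and whether they exceed background was not tested, so the fold is that of the deposited values only. With any 1 array left out the difference on the log2 scale stayed between -3.49 and -3.21.

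Ptk2b encodes Pyk2, a relative of focal adhesion kinase that responds to calcium and to protein kinase C. Its brighter probe set, 1434653_at, read 7.96, 8.06 and 7.80 in wild type 1 to 3 and 6.305, 6.31, 6.41 and 6.38 in null 1 to 4. The null arrays were tightly grouped, with an SD of 0.05 (n = 4) around a mean of 6.35, against 7.94 ± 0.13 (SD, n = 3) in wild type, 3.01-fold lower. The other probe set, 1442927_at, was 1.60-fold lower, at 6.85, 6.91 and 6.78 in wild type and 6.23, 6.09, 6.12 and 6.25 in null arrays. On both probe sets wild type and null arrays were fully separated, but the sizes differed: -1.59 on 1434653_at and -0.67 on 1442927_at on the log2 scale. In bulk tissue, fewer cells of a type and less RNA per cell cannot be told apart.

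The heterozygote stood nearer wild type than null on Itpka. It read 7.62 there, 0.38 under the wild type mean and 2.93 above the null mean, which places it at 0.12 of the way from wild type to null. On Ptk2b it read 7.65 on the brighter probe set, at 0.18 of the way, and 6.50 on 1442927_at, at 0.52 of the way. These are values of 1 animal, and each lies below all 3 wild type arrays and above all 4 null arrays.

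**Figure D1:**
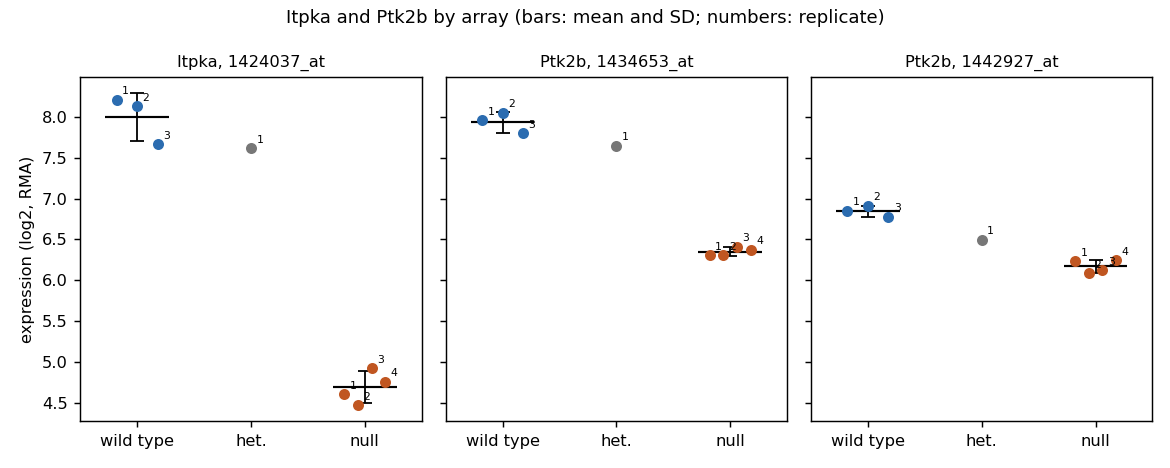
Expression on the log2 scale of the Itpka probe set and both Ptk2b probe sets, with 1 point per array numbered by replicate, in wild type (blue), heterozygote (grey) and null (orange) striatum; horizontal bars are means and error bars SDs. The null arrays of Itpka sit between 4.47 and 4.92 and its wild type arrays between 7.67 and 8.21, with the heterozygote at 7.62.

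Itpkb, which encodes a second IP3 3-kinase best known from lymphocytes, had the same level in both genotypes within the error. Its brighter probe set, 1435272_at, read 6.96, 7.39 and 7.28 in wild type 1 to 3 and 7.15, 7.03, 7.36 and 7.35 in null 1 to 4. The groups overlapped over most of their range. The difference was 0.01 with a 95% interval from -0.32 to 0.34 (limma adjusted p = 0.974), an interval that holds no change near that of Itpka. Its dim probe set, 1441058_at, differed by -0.07 (interval -0.37 to 0.22). The heterozygote read 7.47 on the brighter probe set, above all other arrays, and 4.68 on the dim one, below all other arrays.

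The sequences upstream of the annotated starts of Itpka and Itpkb are shown because these paralogues had the largest and the smallest difference of the set. Each run gives the 250 bases before the start in RefSeq's assembly GRCm38.p6, on the plus strand, at chr2:119742087-119742336 for Itpka and chr1:180330226-180330475 for Itpkb, with capitals marking the GC box GGGCGG or its reverse complement.
Itpka: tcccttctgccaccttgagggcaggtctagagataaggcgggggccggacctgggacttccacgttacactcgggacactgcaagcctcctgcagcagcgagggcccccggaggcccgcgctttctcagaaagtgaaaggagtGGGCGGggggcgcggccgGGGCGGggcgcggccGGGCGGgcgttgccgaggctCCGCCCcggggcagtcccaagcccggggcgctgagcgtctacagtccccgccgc
Itpkb: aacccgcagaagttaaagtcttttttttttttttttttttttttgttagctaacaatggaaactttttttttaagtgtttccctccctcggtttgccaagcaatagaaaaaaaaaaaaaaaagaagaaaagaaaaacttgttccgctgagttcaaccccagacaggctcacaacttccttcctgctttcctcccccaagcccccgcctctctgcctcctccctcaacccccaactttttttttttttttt

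The Itpka window was 72.8% G or C and held 26 CpG dinucleotides and 4 GC boxes, while the Itpkb window was 38.4% G or C and held 4 CpG dinucleotides and 0 GC boxes. Over 32851 windows of the same length the median was 52.4% G or C, 32.7% held at least 1 GC box on either strand and 4.09% held at least 4. Neither window held a TATA box, TATAAA, found in 12.4% of windows, nor the cyclic AMP response element TGACGTCA, found in 1.55%. None of these motifs overlapped another here. Windows were also matched for Itpr2, Itpr3, Camk2b and Prkcb, which were 65.2% to 78.4% G or C, and Itpr2, like Itpka, held 4 GC boxes. A match is a description of these letters and not of a bound site.

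None of the 24 probe sets of the genes added for their function passed the threshold. At a limma adjusted p under 0.05, 0 of 24 were lower and 0 were higher in null striatum, where 2.32% of all probe sets were called, 0.453% lower and 1.87% higher. At an unadjusted p under 0.05 there were 1 lower and 4 higher, 20.8% of the 24 against 19.6% of all probe sets (8.74% lower, 10.9% higher). The SAM score beyond 2 took 1 lower and 5 higher, where 12.7% and 10.3% of all probe sets were taken. The study's design names this cut with 153 selected genes, whereas the score computed here took 2026 higher and 2341 lower genes, so it is not the study's selection. The genotypes were fully apart on 1 lower and 2 higher probe sets, 12.5% against 16.5% of all (8.85% lower, 7.70% higher). Pooled over both directions, the shares at an unadjusted p and of full separation lie near the background. Split by direction, the lower share was under and the higher share over the background at an unadjusted p and with SAM. This split rests on few probe sets, several of them of the same gene, and was not tested. The median difference of the 24 was -0.06, against -0.08 over all probe sets, and their differences ran from -0.43 to 0.55.

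The intervals show what the arrays could resolve. The widest 95% interval among the 24 ran from -0.36 to 0.89, on the dim Itpr2 probe set 1427287_s_at, and no interval went below -0.75 or above 1.02 on the log2 scale. In 10 of the 24 the mean level was below that of the median probe set.

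IP3 receptors are the calcium channels that IP3 opens, and 2 of the 3 genes were measured. Itpr3, which encodes the receptor form typical of epithelial and sensory cells, read 6.57, 7.02 and 6.69 in wild type and 6.33, 6.24, 6.25 and 6.52 in null arrays. Every null array was below every wild type array, though wild type 1 and null 4 nearly met. The difference of -0.43 (interval -0.75 to -0.11) did not pass (limma adjusted p = 0.162), and without wild type 2 it was -0.30. The heterozygote read 6.31, at the null mean of 6.33.

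Itpr2 encodes the receptor form that predominates in glia and many other non-neuronal cells, and it had 6 probe sets, of which 5 were below the median probe set. Its brightest, 1427693_at, read 6.51, 6.67 and 6.78 in wild type and 6.18, 6.34, 6.36 and 6.70 in null arrays, a difference of -0.26 (limma adjusted p = 0.336). The groups overlapped through null 4. Probe set 1424834_s_at went the other way without overlap, at 6.10, 6.06 and 5.49 in wild type and 6.18, 6.36, 6.39 and 6.24 in null arrays (0.41, limma adjusted p = 0.217), and without wild type 3 its difference was 0.22. Its suffix marks probes shared by several transcripts. The remaining 4 probe sets differed by between -0.13 and 0.27, and all 4 overlapped.

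Of the 12 probe sets of calmodulin-dependent kinases in the set, 0 passed the limma test, with 1 higher and 0 lower at an unadjusted p under 0.05, and 2 higher and 0 lower at an SAM score beyond 2. Of all probe sets, 10.9% were higher and 8.74% lower at that p, and 10.3% and 12.7% beyond that score. Camk2a encodes the alpha subunit of CaMKII, the abundant kinase of excitatory synapses, whose expression rises after birth. Its brightest probe set, 1457311_at, read 9.94, 9.45 and 9.38 in wild type and 9.42, 9.27, 9.64 and 9.80 in null arrays. Wild type 1 was the highest of the 7 and the groups overlapped, with a difference of -0.05 (interval -0.45 to 0.35, limma adjusted p = 0.868). The other 5 probe sets differed by between -0.11 and 0.28 and overlapped too. The heterozygote read 10.06 on the brightest probe set, above every other array.

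Camk2b encodes the beta subunit of CaMKII, which binds actin and is expressed earlier than alpha. Its probe set read 9.15, 9.003 and 8.80 in wild type and 8.66, 8.74, 8.97 and 8.62 in null arrays. Only null 3 lay within the wild type range. The difference was -0.24 (interval -0.54 to 0.07, limma adjusted p = 0.349), and -0.43 after quantile normalization (limma adjusted p = 0.0830). The heterozygote read 9.27, again above all others.

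Camk4 encodes CaMKIV, a nuclear kinase that phosphorylates the transcription factor CREB. Of its 5 probe sets, the brightest, 1439843_at, read 9.19, 8.81 and 8.88 in wild type and 9.24, 9.29, 9.28 and 9.09 in null arrays, overlapping only through wild type 1 (0.26, limma adjusted p = 0.295). Probe set 1441974_at showed the largest difference of the 24, with 6.79, 6.02 and 6.07 in wild type and 6.97, 7.04, 6.50 and 6.87 in null arrays. It differed by 0.55 (interval 0.08 to 1.02, limma adjusted p = 0.204). Wild type 1 decided this value: without that array the difference was 0.80 and passed (limma adjusted p = 0.0389), and with array weights it was 0.74 (limma adjusted p = 0.0239). The remaining 3 Camk4 probe sets differed by -0.15, -0.20 and -0.09, so the probe sets of this gene did not go the same way.

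Prkcb encodes protein kinase C beta, a conventional form that needs calcium and diacylglycerol. Its brightest probe set, 1460419_a_at, read 10.30, 10.10 and 9.78 in wild type and 10.51, 10.29, 10.91 and 10.59 in null arrays. Null 2 lay just under wild type 1, and the rest of the null arrays were above wild type. The difference was 0.52 ± 0.18 (SE; interval 0.12 to 0.91), which did not pass (limma adjusted p = 0.167). On 1423478_at the groups did not overlap, with 8.89, 8.95 and 8.99 in wild type and 9.21, 9.15, 9.46 and 9.55 in null arrays (0.40, limma adjusted p = 0.162). The third probe set, 1443144_at, was dim and differed by 0.05. The heterozygote exceeded every null array on both bright probe sets, at 11.14 and 9.70. Quantile normalization lowered the differences of these probe sets to 0.31 and 0.20, and counting the heterozygote among the controls to 0.25 and 0.21.

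**Figure D2:**
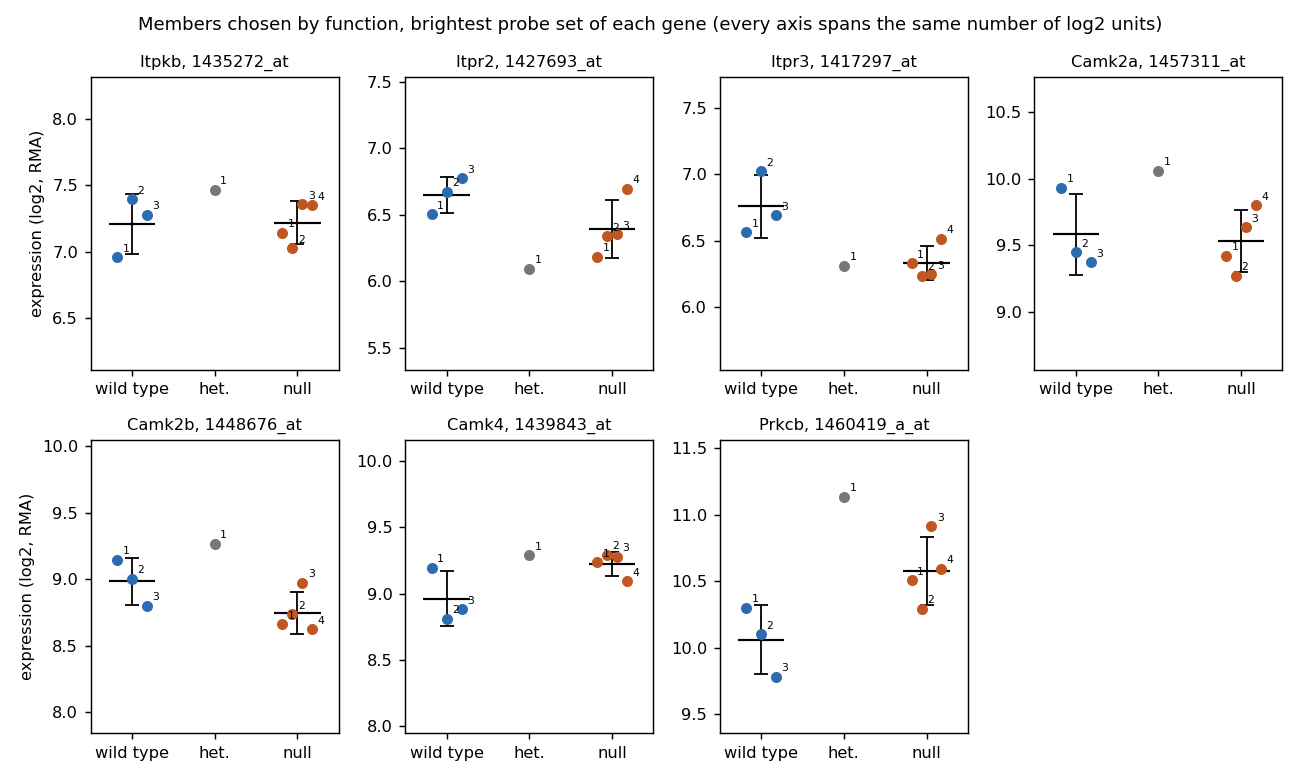
Expression on the log2 scale of the brightest probe set of each of the 7 measured genes added for their function, with 1 point per array numbered by replicate; bars are means and SDs, and every axis spans the same length. Wild type (blue) and null (orange) arrays overlap on 6 of the 7, and the heterozygote (grey) is the highest array for Itpkb, Camk2a, Camk2b and Prkcb.

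**Figure D3:**
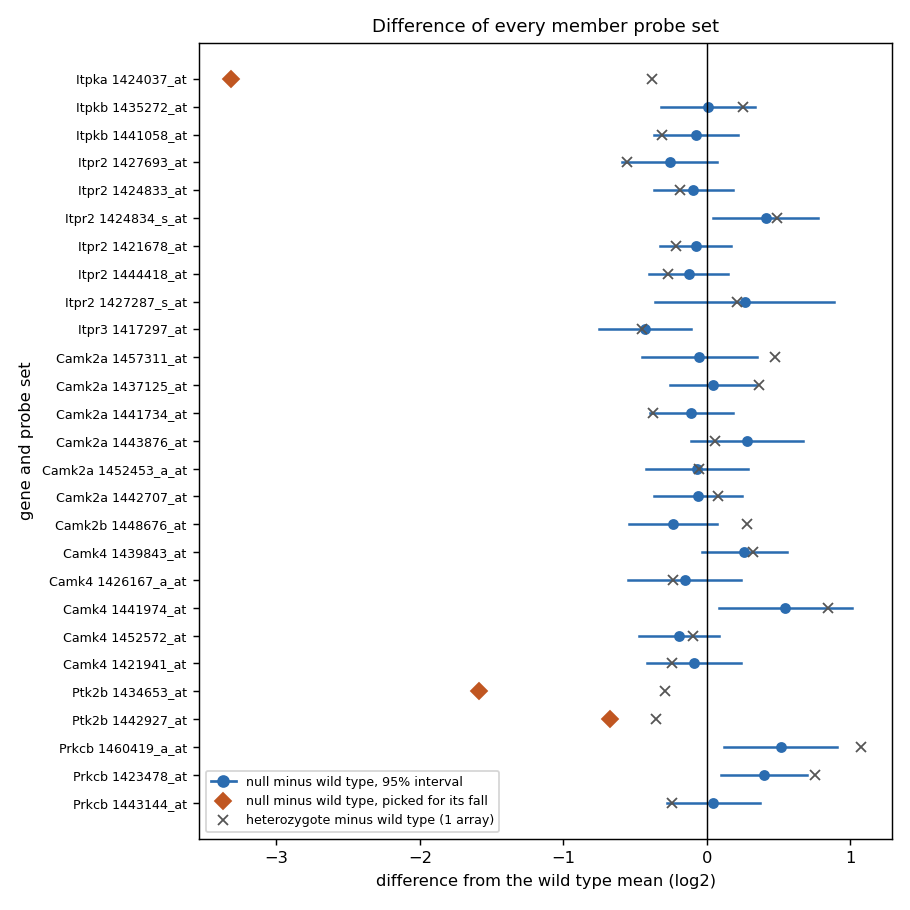
Difference from the wild type mean on the log2 scale for all 27 probe sets: circles with 95% intervals are null minus wild type for the 24 added for their function, diamonds are Itpka and Ptk2b without an interval, and crosses are the heterozygote. Itpka lies at -3.32 and Ptk2b at -1.59 and -0.67, while the circles lie between -0.43 and 0.55.

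Related genes outside the set were read from 7 lists written from general knowledge, with 1 probe set per gene and p-values adjusted over 18193 genes. Of 149 measured genes 7 rose, 5 fell and 137 did not pass, which is 4.70% higher and 3.36% lower against 2.86% and 0.786% of all genes (3.65% in either direction). Wild type and null arrays were fully apart on 23 higher and 15 lower of the 149, where 8.59% and 9.62% of all genes were. The median difference of the 149 was 0.07, against -0.08 over all genes. All genes include many dim ones: of the 12014 left after dim probe sets were filtered, 560 rose and 131 fell, with a median of 0.01. The 149 were not matched to genes of like brightness, so their shares are not read as an excess. Every array moved one of these counts by over 1.5 times when left out: it gave 2 lower and 13 higher without wild type 1, 2 and 3 without wild type 2, 3 and 3 without wild type 3, 2 and 4 without null 1 or null 2, 3 and 6 without null 3, and 3 and 13 without null 4. Of these 12 calls, 3 held in each of the 20 alternatives run: Camk1, Prkca and Rasgrp2. Plcd3 lost its call in 11 of the 20, Hpcal1, Plcb4 and Rasgrp1 in 10 each, and Camk1d in 9. Gnaq lost its call in 7, Efcab1 in 4, and Calb2 and Inpp1 in 3 each. Not all of these losses are listed gene by gene below.

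Genes of IP3 production moved in both directions. Of 20 genes 2 rose, 1 fell and 17 did not pass, with a median of -0.06. Gnaq, the Gq alpha subunit that activates phospholipase C beta, read 9.97, 9.96 and 9.74 in wild type and 10.71, 10.92, 11.28 and 10.48 in null arrays, 1.94-fold higher (limma adjusted p = 0.0230). The groups did not overlap, and 5 of its 7 probe sets rose. Its call was lost without wild type 2 (0.0695), wild type 3 (0.107), null 1 (0.0535) or null 2 (0.0832), and without wild type 1 and null 2 together (0.0955). The Gnaq call was also lost when the heterozygote was counted as a control (0.182) and with the array SD as covariate (0.120).

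Plcb4, a phospholipase C driven by Gq, rose 1.71-fold, from 6.67, 6.99 and 7.14 to 7.91, 7.61, 7.44 and 7.87 (limma adjusted p = 0.0355). Its other 4 probe sets differed by between -0.08 and 0.07, and the call was lost without wild type 1 (0.0558), 2 (0.0996) or 3 (0.0684) or null 1 (0.0982) or 2 (0.0933). Plcd3, a delta form of phospholipase C, fell 1.52-fold, from 7.20, 6.84 and 6.99 to 6.29, 6.55, 6.49 and 6.303 (limma adjusted p = 0.0447 over genes and 0.0520 over probe sets). Plcd3 lost its call without any 1 array: 0.0665, 0.0694 and 0.136 without wild type 1, 2 and 3, and 0.127, 0.0981, 0.0741 and 0.0570 without null 1 to 4.

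Enzymes that turn over inositol phosphates mostly did not pass. Of 19 measured genes 1 rose, 0 fell and 18 did not pass, with a median of 0.14. Inpp1, a phosphatase that removes a phosphate from inositol bisphosphate on the way back to free inositol, read 6.03, 5.50 and 6.21 in wild type and 6.97, 7.06, 6.96 and 6.96 in null arrays. It rose 2.11-fold (limma adjusted p = 0.0097), and its other probe set, at a mean of 3.05, differed by -0.16. The heterozygote read 6.77, near the null arrays, and with it among the controls Inpp1 had a limma adjusted p of 0.153. The Inpp1 call was also lost without wild type 1 and null 2 (0.0521) and with the array SD as covariate (0.0748). Synj1, the synaptic lipid phosphatase synaptojanin, differed by 0.72 (limma adjusted p = 0.0576).

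Genes of the calcium store had 0 calls among 24 (median 0.01, limma). Ryr2, a ryanodine receptor that releases calcium from the same store, differed by 0.82 (limma adjusted p = 0.134), and Trpc1, a channel subunit linked to store-operated entry, by -0.67 (limma adjusted p = 0.119). The Trpc1 difference was -0.42 without wild type 1 and -0.31 without wild type 1 and null 2. At an unadjusted limma p under 0.05 there were 2 higher and 1 lower, and at an SAM score beyond 2 there were 2 higher and 3 lower. Over all 18193 genes, 3879 passed the first cut, and the second took 2026 higher and 2341 lower.

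Among calmodulin targets a pair of closely related kinases moved apart. Of 24 measured genes 1 rose, 1 fell and 22 did not pass, with a median of 0.28. Camk1, which encodes CaMKI, read 7.07, 7.57 and 7.14 in wild type, 8.25 in the heterozygote and 9.12, 9.24, 9.22 and 8.42 in null arrays. The groups did not overlap and the heterozygote stood between them. It rose 3.34-fold (limma adjusted p = 0.0036), and its other probe set rose too, by 2.20 on the log2 scale (limma adjusted p = 0.0017 over probe sets).

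Camk1d, a CaMKI paralogue, read 8.76, 8.43 and 7.76 in wild type and 6.96, 7.03, 7.72 and 7.20 in null arrays, with wild type 3 and null 3 almost level. It fell 2.13-fold (limma adjusted p = 0.0453 over genes and 0.0577 over probe sets), and the next brightest of its 3 probe sets fell by 0.75 (limma adjusted p = 0.0244 over probe sets). The Camk1d call was lost without wild type 1 (0.0721), wild type 2 (0.160), null 1 (0.113), null 2 (0.138) or null 4 (0.0562). The difference between the changes of Camk1 and Camk1d was not tested.

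Among protein kinase C and diacylglycerol effectors, the genes that passed the adjusted threshold were all lower, but looser cuts took genes of both directions. Of 25 measured genes 0 rose, 3 fell and 22 did not pass, although the median was 0.05. At an unadjusted limma p under 0.05 there were 4 higher and 4 lower, and at an SAM score beyond 2 there were 5 higher and 4 lower. Over all genes these cuts took the counts given for the calcium store. Prkca, the conventional protein kinase C alpha, read 10.38, 10.14 and 10.37 in wild type, 10.39 in the heterozygote and 9.39, 9.48, 9.27 and 9.45 in null arrays. It fell 1.87-fold (limma adjusted p = 0.0059) on 3 of 3 probe sets, with both groups tightly spread, while Prkcb above differed by 0.52 without passing. The difference between these changes was not tested.

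Rasgrp2, an exchange factor for Rap that calcium and diacylglycerol activate, fell 2.23-fold, from 9.25, 9.25 and 8.83 to 8.19, 8.04, 7.72 and 7.89 (limma adjusted p = 0.0058), and 2 of its 4 probe sets passed over all probe sets. Rasgrp1, its relative acting on Ras, fell 2.70-fold, from 10.03, 9.44 and 9.01 to 8.16, 7.21, 8.34 and 8.53. The probe set with these values had a limma adjusted p of 0.0404 over genes and 0.0525 over probe sets. Of the 4 Rasgrp1 probe sets, 1 passed over all probe sets. It was a dimmer one that differed by -0.96 on the log2 scale (limma adjusted p = 0.0093 over probe sets). Rasgrp1 and Rasgrp2 are known from striatal projection neurons. Of the 10 medium spiny neuron markers given above, 4 were lower and 6 were not called in the same arrays, and a link was not tested. Rasgrp1 lost its call without wild type 1 (0.0674), 2 (0.121) or 3 (0.0648) or null 1 (0.0837), 2 (0.0681) or 3 (0.0653), and without wild type 1 and null 2 together its difference was -0.89 instead of -1.43. Chn2, a diacylglycerol-binding Rac regulator, differed by 1.30 (limma adjusted p = 0.0625), with 8.69 in the heterozygote against a wild type mean of 6.97.

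Partners of the focal adhesion kinases had 0 calls among 17 genes (median 0.07, limma). Src, the kinase that Pyk2 recruits, differed by 0.71 (limma adjusted p = 0.126) and Fyn, a related kinase, by 0.41 (limma adjusted p = 0.210). Ptk2, the focal adhesion kinase that is the paralogue of Ptk2b, was not analysed here. At an unadjusted limma p under 0.05, and also at an SAM score beyond 2, there were 2 higher and 0 lower. The counts over all genes at these cuts are those given for the calcium store.

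Of 20 calcium buffers and sensors 3 rose, 0 fell and 17 did not pass, with a median of 0.16. Calb2, the interneuron calcium-binding protein calretinin, rose 2.86-fold, from 6.65, 6.73 and 7.50 to 8.22, 8.78, 8.78 and 8.13 (limma adjusted p = 0.0109, and 0.0505 without wild type 2). The Calb2 call was also lost without wild type 1 and null 2 (0.0729) and with the array SD as covariate (0.0988). Calb2 is also among the 9 interneuron markers, of which Lhx6 was called higher too, while Npy differed by -0.65 without passing (limma adjusted p = 0.113) and the list median was -0.10. Hpcal1, a neuronal calcium sensor of the hippocalcin family, rose 1.98-fold, from 8.74, 8.76 and 9.01 to 9.52, 9.98, 10.37 and 9.43 (limma adjusted p = 0.0396 over genes and 0.0504 over probe sets). Hpcal1 lost its call without wild type 1 (0.0622), 2 (0.141) or 3 (0.0983) or null 1 (0.0567), 2 (0.128) or 3 (0.0543). Efcab1, an EF-hand protein gene, rose 1.86-fold on 1 of 3 probe sets (limma adjusted p = 0.0111, and 0.0598 without wild type 3), with the heterozygote at 7.19, past the null mean of 7.12. The Efcab1 call was also lost when the heterozygote was counted as a control (0.298), without wild type 1 and null 2 (0.0767) and with the array SD as covariate (0.0691).

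**Figure D4:**
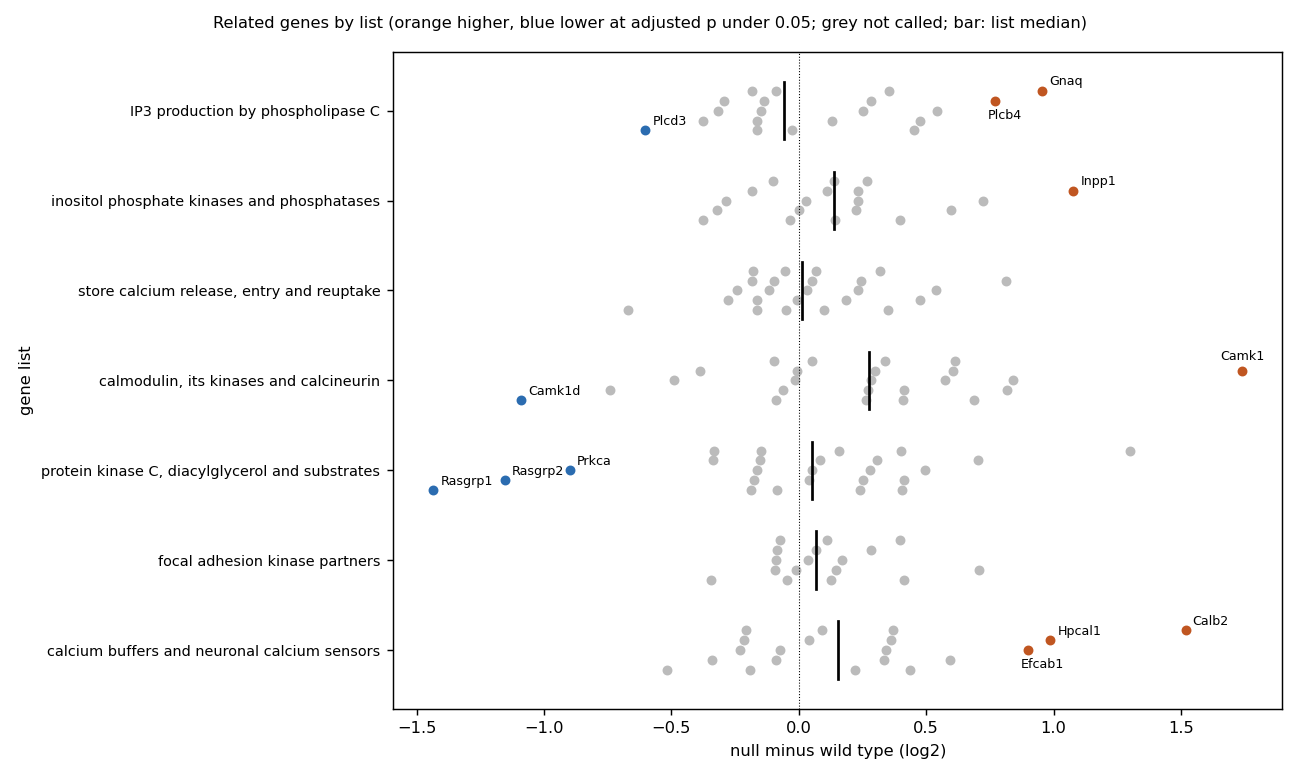
Null minus wild type difference on the log2 scale of 149 related genes in 7 lists, with 1 point per gene and a black bar at each list's median; vertical scatter within a list has no meaning. The genes that passed are coloured and named, from Rasgrp1 at -1.43 to Camk1 at 1.74.

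The genes whose values most resembled those of Itpka and Ptk2b over the 8 arrays were found by the root mean square difference after each gene's wild type mean was subtracted, among 16328 other genes. Nearest to Itpka was Nexn, an actin-binding protein gene, at 0.39, followed by Thy1 at 0.84, Rasl11b at 0.91, Gpr6 at 0.99 and Myo5b at 1.01. On the log2 scale Nexn differed by -3.20 and the other 4 by between -2.21 and -2.02. On Nexn the heterozygote read 9.92 against a wild type mean of 9.86.

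Nearest to Ptk2b on its brighter probe set was Ngef, which encodes an exchange factor downstream of Eph receptors, at 0.15, followed by Selenom at 0.19, Arhgdib at 0.21, Nectin3 at 0.23 and Tgfa at 0.24. These 5 differed by between -1.84 and -1.36 on the log2 scale. On Ngef, null 1 to 4 read 9.27, 9.07, 9.50 and 9.33 and the heterozygote 10.80, against wild type values of 10.92, 10.79 and 10.74. Since Itpka and Ptk2b were picked for this contrast, genes like them share it by construction, and no test is attached.

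**Figure D5:**
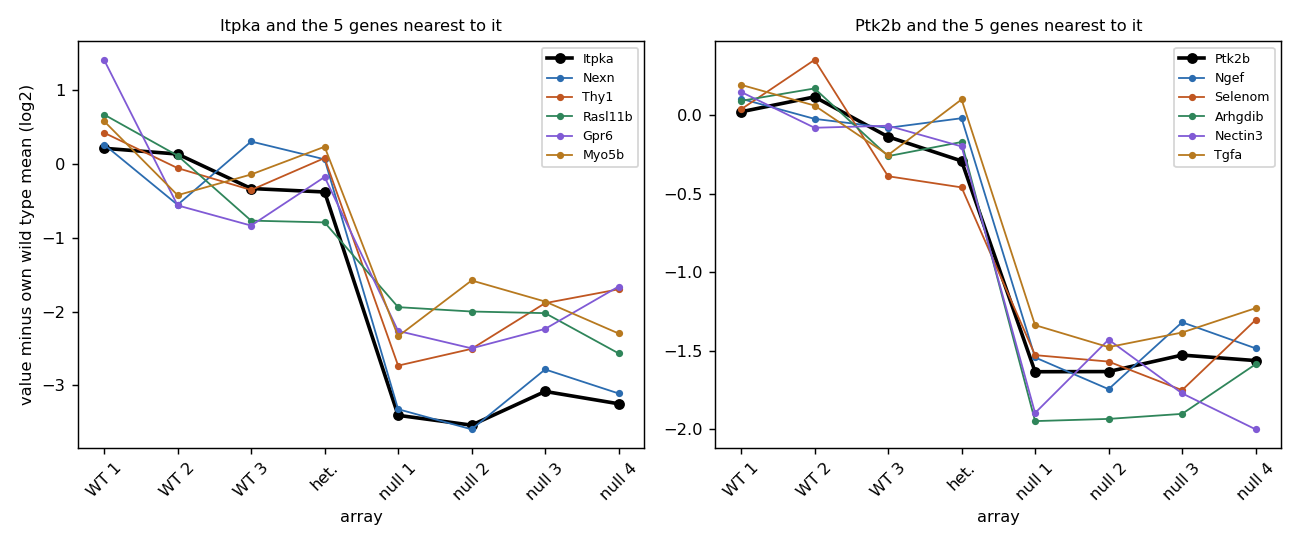
Value minus the gene's own wild type mean, on the log2 scale, in each of the 8 arrays for Itpka (left, black) and Ptk2b (right, black) and for the 5 genes nearest to each. Nexn follows Itpka down to about the same depth in the 4 null arrays, while the other 4 genes stop above it.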

How the data were processed

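The deposited values are log2 expression per probe set, for which the authors ran RMA (Bioconductor), as stated in the series' design text and the submitters' processing notes. RMA corrects background, normalizes by quantiles and summarises probes by median polish. The sources used here name neither its version nor which arrays were normalized together, and array SDs still differ after it. Of 45037 probe sets, 34945 carry 1 symbol, 932 several and 9160 none, and 34741 of the former were matched to the reference gene table. A gene outside the set was represented by its brightest single-symbol probe set over the wild type and null arrays.

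Null was compared with wild type by limma (version 3.58.1, R 4.3.3; lmFit, eBayes) on 3 and 4 arrays, with Benjamini-Hochberg adjusted p-values (all probe sets for members, all genes for the lists) and a threshold of 0.05. The number of arrays limits the precision. The test was checked on simulated data for this comparison, over 45037 probe sets: it made 162 calls, 11 of them false, and recovered 61 of 100 true changes of 1 log2 unit and 90 of 100 of size 1.5. The simulated noise was normal and independent between probe sets. Shifts that many probe sets of an array share were not part of it, so these rates may not hold for the real arrays. Summed marker levels are log2 of summed linear values, so the brightest markers of a list weigh most in them. Intervals cover 95%. Figures were drawn with matplotlib 3.10.9.

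The members, lists and alternatives were chosen with earlier results of these data known. Named genes were every member probe set, Bcl11b, from each list the called genes (up to 4 per direction) and the 2 of largest change, and for Itpka and Ptk2b the 5 nearest genes, predicted models and clone names aside. Other genes and the interneuron, microglial and other markers named beside results were named after their values were seen. Alternatives left out arrays, moved the heterozygote or changed scaling, filter, weights, threshold or the probe set per gene. Arrays of the same replicate number were not treated as pairs, except in the alternative with a replicate block.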

Additional observations from a re-analysis of the deposited data

Results flagged for a closer look

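Null arrays were checked on 46 probe sets: the 27 of the set and 1 each for Bcl11b and the genes named by rule from the lists. Other genes named in the text were not checked. Among the 46, 5 had a null array that stood apart from the other 3 by more than Dixon's 95% limit, where chance flags about 5% of groups. Camk1 read 8.42 in null 4 against 9.12 to 9.24 in the other null arrays, and Inpp1 read 7.06 in null 2 against 6.96 to 6.97. Ryr2 read 7.34 in null 3 against 6.36 to 6.52, and Synj1 10.76 in null 3 against 10.18 to 10.22. Trpc1 read 6.97 in null 2 against 7.35 to 7.42. None of the 27 probe sets of the set itself was among them.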

How the results depend on the processing

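For the 24 probe sets added for their function, counts stayed at 0 lower and 0 higher except with SAM (1 lower, 5 higher), array weights (1 higher) and single arrays left out (0 to 1 higher). For the 149 related genes (5 lower, 7 higher), counts were 2 and 2 with the heterozygote among the controls, 2 and 1 without wild type 1 and null 2, 3 and 2 with the array SD as covariate, 2 and 6 with arrays centred on their median, 11 and 24 with array weights, 16 and 28 with SAM, and 7 and 14 at an adjusted p under 0.1. Without single arrays they ran from 2 to 3 lower and from 3 to 13 higher. With the replicate block they were 4 and 11, 4 and 6 of them shared with the 5 and 7, and 0 member probe sets were called. Same-numbered arrays correlated at -0.25, -0.31 and -0.17 in their deviations from their group means. Such deviations of so few arrays cannot show whether same-numbered animals shared a litter or a processing step. Quantile normalization gave 7 and 7. Over all genes, calls were 521 higher and 143 lower, 189 and 67 without wild type 2, 74 and 78 with the heterozygote among the controls, 518 and 277 after quantile normalization. With the array SD as covariate these calls were 133 higher and 81 lower. Itpka stayed between -3.49 and -3.14 in the alternatives that kept its probe set, which the filter on dim probe sets removed. Ptk2b stayed between -1.66 and -1.52 on its brighter probe set and between -0.71 and -0.59 on the other, in the alternatives run on probe sets. Causes of these shifts were not tested.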

Other observations

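The heterozygote lay outside the range of the other 7 arrays on 12 of the 24 probe sets added for their function, above it on 7 and below it on 5. Over all 45037 probe sets it lay above the other arrays on 11.3% and below them on 20.1%. The 7 high ones were 1460419_a_at and 1423478_at of Prkcb, 1457311_at and 1437125_at of Camk2a, and 1 each of Itpkb, Camk2b and Camk4. This array also had the largest SD of log2 values, 2.06, and its part in these values was not tested.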
